A study of Rattus norvegicus with 18 samples.

Results

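Primary rat hepatocytes exposed to 1 mM trichloroethylene (TCE) for 6 h were compared with hepatocytes given the 0.1% DMSO vehicle alone. All libraries with these labels were taken, 4 TCE and 3 Control libraries, which are 7 of the 18 RNA-seq libraries of the series. The compounds were dissolved in the medium (WEM in the labels) with 0.1% DMSO, so every group, Control included, held DMSO. The other 11 libraries came from acetaminophen (APAP, 3 mM), TCDD (a dioxin, 1 nM) and carbon tetrachloride (CCl4, dose not given in the sources used here), and enter only where stated. Per the labels, doses were chosen to kill few cells while lowering albumin output and raising P450 activity. The strain, sex and age of the animals, and whether replicates are separate animals or cultures, are not given, so p-values reflect only the scatter among these libraries, which may be technical.

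Trichloroethylene is a chlorinated solvent used for degreasing metal and is a common groundwater contaminant. In the liver it is oxidised by cytochromes P450, chiefly CYP2E1, to chloral, which is turned into trichloroethanol and trichloroacetate; a minor route joins it to glutathione. Trichloroacetate and dichloroacetate activate the nuclear receptor PPAR alpha in rodent liver, which raises enzymes of fatty acid oxidation and of peroxisomes. The deposited tables list transcripts by Ensembl identifier and do not pair them with gene names, so the genes of these pathways, and the hepatocyte markers that would check the cell type, could not be located. Results are therefore given by transcript length and level, with identifiers for the most changed transcripts in each direction.

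Total estimated counts were 9986868 to 11479466 in the 7 libraries, and 19151 to 19801 of the 30897 listed transcripts had a value above 0. TCE replicate 4 held the lowest total and the highest number of transcripts. Of the listed transcripts, 15280 had enough counts to be tested and held 99.8% to 99.87% of counts. The first principal component of these libraries held 27.9% of the variance. Control replicate 3 lay at 14.8 on it, beside TCE replicates 1 to 3 (23.8 to 33.6), whereas TCE replicate 4 lay at -17.8, towards Control replicates 1 and 2 (-32.6 and -49.4).

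Few transcripts passed the test between TCE and Control, and those that fell were very abundant ones. The comparison called 16 of 15280 transcripts, 0.105% of those tested, of which 7 were higher and 9 lower with TCE (0.0458% and 0.0589%; adjusted p under 0.05 by edgeR's quasi-likelihood test with Benjamini-Hochberg adjustment). The 9 that fell were short, from 411 to 798 bases, and fell by 2.36-fold to 9.22-fold. They hold only 4 distinct series of values, because 5 transcripts of 411 bases shared identical values and so did a pair of 666 bases. Each identical transcript counted as its own test in the adjustment. With identical transcripts collapsed to 1, 9 of 15222 were called, 5 higher and 4 lower. The 7 that rose were all distinct; 6 of them rose by 1.98-fold to 2.35-fold, and the seventh, of 180 bases, from a very low level. For all 16 the Control and TCE libraries did not overlap; the same held for 16.6% of all tested transcripts, 8.63% higher and 7.95% lower. More transcripts were higher under another scaling: using total counts alone gave 37 calls (0.242%), 28 higher (0.183%) and 9 lower (0.0589%). Other tools called many more, 968 (6.34%) with DESeq2 and 3874 (25.4%) with limma voom, and these held 15 and 16 of the 16. The count also moved with single libraries: it was 8 (0.0513%) without Control replicate 1 and 9 (0.0578%) without Control replicate 2, with 0 higher in either fit. It was 1148 (7.34%; 417 higher, 731 lower) without Control replicate 3 and 32 (0.213%; 16 higher, 16 lower) without TCE replicate 4.

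**Figure D1:**
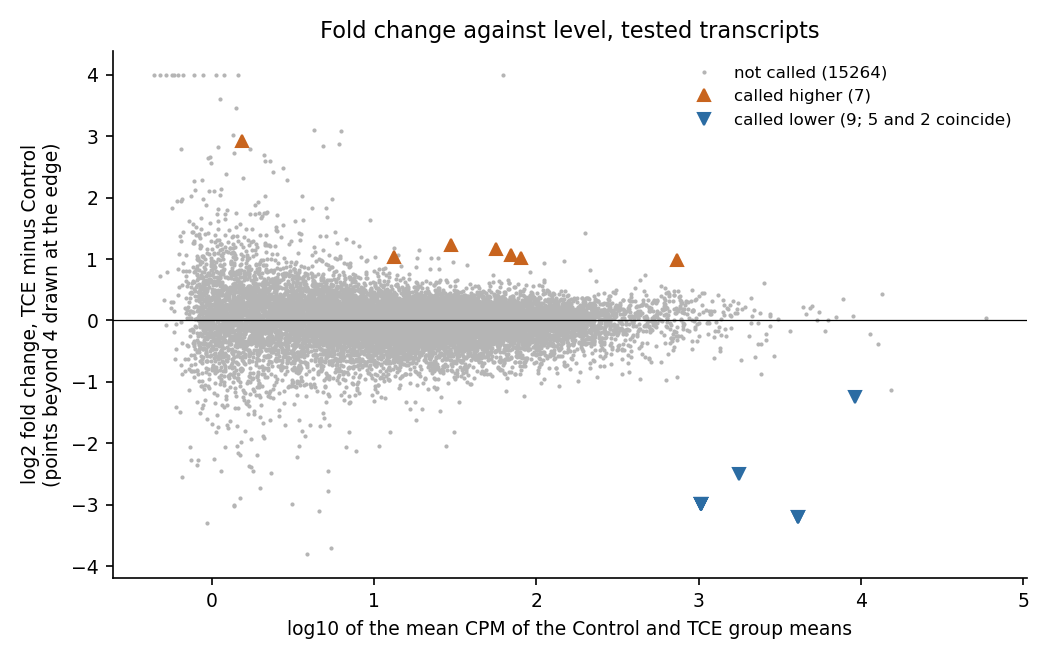
Log2 fold change of TCE against Control (vertical) against log10 of the mean CPM of both group means (horizontal) for the 15280 tested transcripts. The 9 called lower (downward triangles, 4 positions because identical transcripts coincide) lie at the high end of abundance, while the 7 called higher (upward triangles) lie mostly near a log2 fold change of 1.

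The strongest change was in the pair of 666-base transcripts with identical values, ENSRNOT00000077306.1 and ENSRNOT00000087247.1. Each stood at 20250, 13740 and 21880 TPM (a transcript's share of all transcripts after correction for length) in Control replicates 1 to 3. With TCE each stood at 2599, 1745, 2148 and 2230 TPM in replicates 1 to 4. All TCE libraries were therefore far below all Control libraries. The log2 fold change was -3.21 ± 0.22 (SE), with a 95% interval of -3.70 to -2.71 (edgeR adjusted p = 0.000946). Since the values are the same in all libraries, they are 1 measurement listed under both names, and the estimate cannot say which of the transcripts the reads came from. In bulk RNA, fewer cells with a transcript and less of it per cell cannot be told apart.

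The 5 identical transcripts of 411 bases each fell from 9789 ± 1948 TPM (SD, n = 3) to 1339 ± 193 TPM (SD, n = 4). This was a log2 fold change of -2.99 (SE 0.19), with an adjusted p of 0.000764 by edgeR. The Control libraries ranged from 7541 to 11000 TPM and the TCE libraries from 1092 to 1559 TPM. Another, distinct transcript of 666 bases stood at 8262, 6356 and 8335 TPM in the Control and at 1787, 1251, 1397 and 1365 TPM with TCE. It fell by 2.50 log2 units (SE 0.17), with an adjusted p of 0.00105 by edgeR. In each of these 3 series of values, Control replicate 2 was the lowest Control library and TCE replicate 1 the highest TCE library. These 8 transcripts passed the test in each of the 7 fits that left out 1 library.

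**Figure D2:**
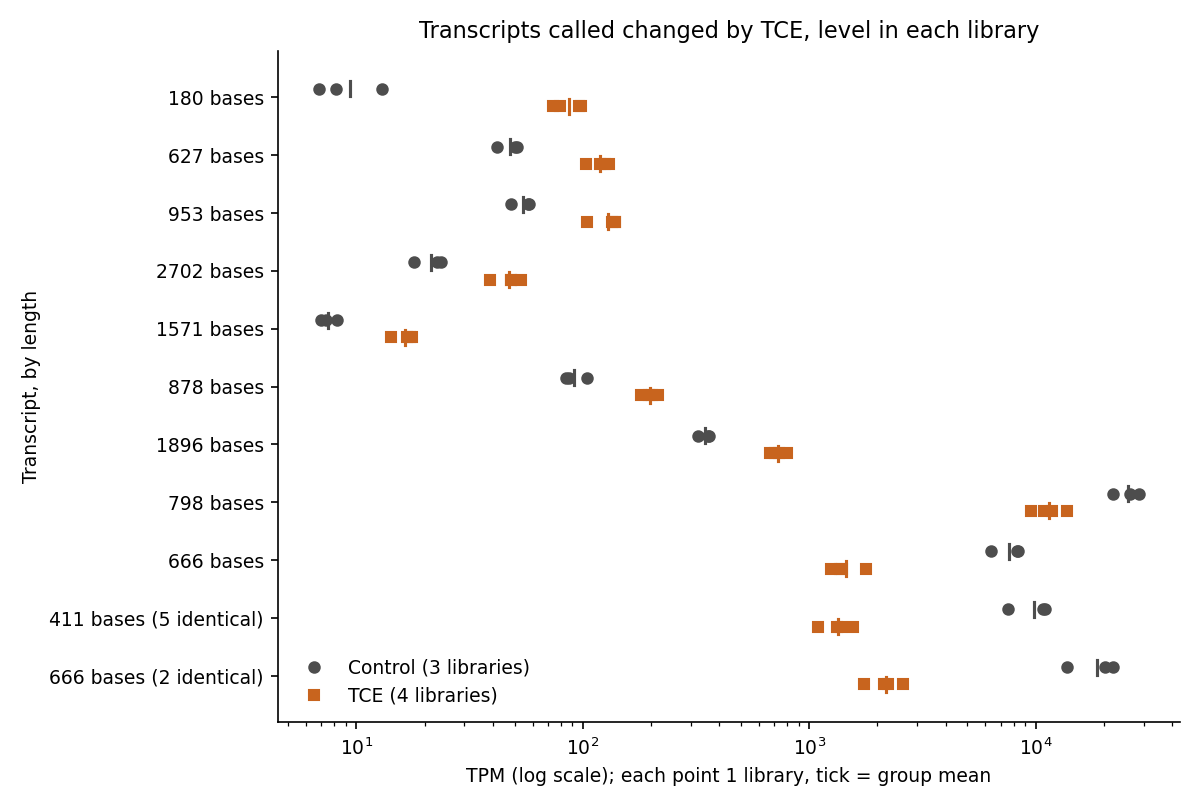
Level in TPM (log scale, horizontal) of the called transcripts, by length (vertical), with 1 row per distinct series of values. Circles are the 3 Control libraries, squares the 4 TCE libraries and short vertical ticks the group means; the symbols of both groups are apart in every row.

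The 8 transcripts together held 2.92%, 1.95% and 3.20% of all estimated counts in Control replicates 1 to 3. With TCE they held 0.415%, 0.283%, 0.341% and 0.344% in replicates 1 to 4. A sum is not affected by how reads were shared among the 8, and it was chosen after their values were seen. The same share varied widely within the TCDD and APAP groups, though not with CCl4. With TCDD it was 0.319%, 0.113% and 0.342% in replicates 2 to 4 but 2.69% in replicate 1. With APAP it ranged from 0.539% in replicate 2 to 3.82% in replicate 4, and with CCl4 from 2.08% to 3.75%. Within TCDD the highest library was 23.8 times the lowest, and within APAP 7.09 times, against 1.80 times with CCl4, 1.64 times in the Control and 1.47 times with TCE. What sets this level apart from the compound was not tested. When all 18 libraries shared 1 fit, 191 transcripts were called (1.16%). The fall of the pair kept its size there but did not pass (log2 fold change -3.21, edgeR adjusted p = 0.0948). None of the 9 transcripts that fell passed in that fit (edgeR adjusted p from 0.0948 to 0.167). With TCDD replicate 1 left out of it, the 8 transcripts passed (edgeR adjusted p from 0.0109 to 0.0168). The remaining transcript that fell still did not (0.112).

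**Figure D3:**
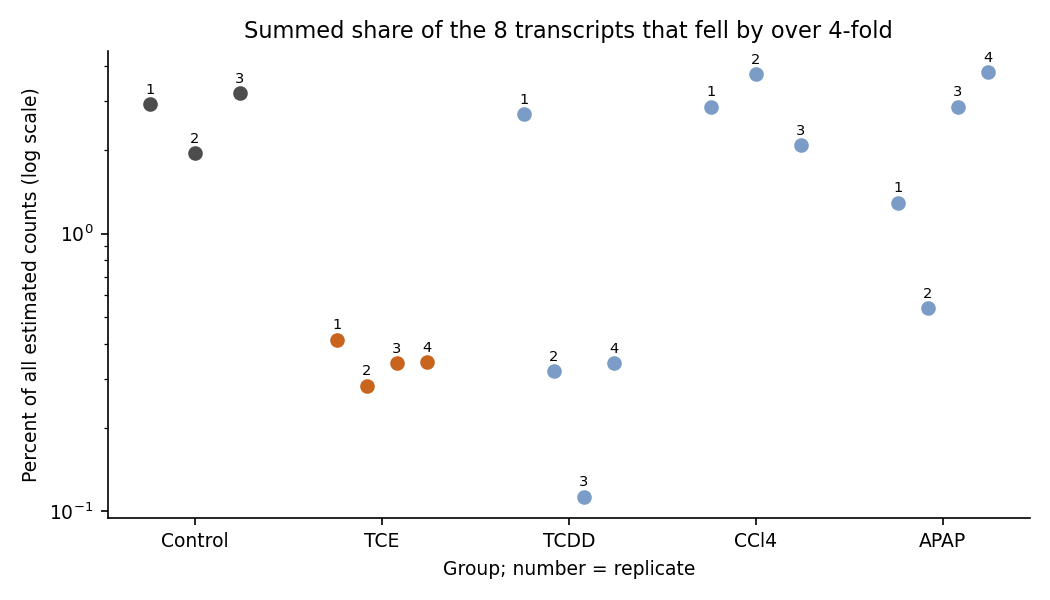
Percent of all estimated counts (log scale, vertical) held by the 8 transcripts of 411 and 666 bases in each of the 18 libraries, by group (horizontal), with the replicate number above each point. The 4 TCE libraries lie between 0.283% and 0.415%, near TCDD replicates 2 to 4, and the 3 Control libraries between 1.95% and 3.20%.

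The remaining transcript that fell, of 798 bases, was the seventh most abundant in these libraries. It stood at 26000, 28560 and 21980 TPM in Control replicates 1 to 3 and at 11820, 10930, 9562 and 13710 TPM with TCE. The lowest Control library thus lay well above the highest TCE library. Its log2 fold change was -1.24 ± 0.11 (SE), a 2.36-fold fall (edgeR adjusted p = 0.00429). With Control replicate 1 left out the adjusted p by edgeR was 0.0505. In the other groups it ranged from 23860 to 33870 TPM with APAP, from 27160 to 33180 TPM with CCl4, and from 9094 to 47280 TPM with TCDD. TCDD replicates 2 and 3 (9763 and 9094 TPM) were at the TCE level and TCDD replicate 4 (47280 TPM) was the highest of the 18 libraries.

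Among the transcripts that rose, ENSRNOT00000028490.2, of 627 bases, had the largest fold change of those with a mean of at least 5 CPM (counts scaled to a total of 1000000). It stood at 41.6, 51.0 and 50.3 TPM in Control replicates 1 to 3 and at 119, 130, 126 and 103 TPM with TCE. Every TCE library was above every Control library. The log2 fold change was 1.23 ± 0.14 (SE), with a 95% interval of 0.92 to 1.55 (edgeR adjusted p = 0.0191). Its counts were whole numbers in the 7 libraries (tolerance 0.000001). With CCl4 it was at 91.4 to 103 TPM, with TCDD at 50.2 to 147 TPM and with APAP at 14.8 to 15.7 TPM, below the Control. It missed the threshold when the fit left out Control replicate 1 (adjusted p = 0.144 by edgeR), Control replicate 2 (0.167), TCE replicate 1 (0.0789), TCE replicate 2 (0.0806) or TCE replicate 3 (0.0974), while its log2 fold change stayed between 1.15 and 1.32 in all 7 such fits.

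ENSRNOT00000076684.1, of 953 bases, rose from 58.1, 57.1 and 48.1 TPM in Control replicates 1 to 3 to 135, 139, 104.5 and 139 TPM with TCE. Its log2 fold change was 1.16 ± 0.12 (SE; edgeR adjusted p = 0.00998). TCE replicate 3 was the lowest of its group and still above the whole Control. All other treated libraries were also high: it was at 125 to 164 TPM with CCl4, 116 to 166 TPM with TCDD and 118 to 140 TPM in APAP replicates 2 to 4. APAP replicate 1 was the exception, at 50.8 TPM, within the Control range. The rise missed the threshold when the fit left out Control replicate 1 (adjusted p = 0.0707 by edgeR), Control replicate 2 (0.105) or TCE replicate 1 (0.0533), nor in the fit of all 18 libraries (0.0631).

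The most abundant transcript that rose, of 1896 bases, went from 347 ± 20.4 TPM (SD, n = 3) to 726 ± 52.3 TPM (SD, n = 4). In log2 units it rose by 0.99 ± 0.09 (SE), with an adjusted p of 0.00511 by edgeR. Its Control libraries were at 324 to 359 TPM and its TCE libraries at 669 to 794 TPM. The other treated groups lay between or around these values, with 355 to 589 TPM for APAP, 512 to 667 TPM for CCl4 and 537 to 968 TPM for TCDD. Again APAP replicate 1, at 355 TPM, was the lowest treated library and lay within the Control range.

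The longest transcript that rose, of 2702 bases, stood at 22.7, 23.7 and 17.97 TPM in the Control and at 48.3, 39.0, 53.3 and 48.3 TPM with TCE. In log2 units it rose by 1.06 ± 0.12 (SE), with an adjusted p of 0.0182 by edgeR. The compounds stood far apart here: CCl4 libraries held 16.8 to 21.9 TPM, as in the Control, and APAP libraries 0.416 to 1.75 TPM, while TCDD libraries held 27.7 to 54.5 TPM. These differences between compounds were not tested.

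A transcript of 878 bases rose from 91.8 ± 11.2 TPM (SD, n = 3) to 198 ± 14.6 TPM (SD, n = 4), or by 1.01 ± 0.13 log2 units (SE), with an adjusted p of 0.0468 by edgeR. One of 1571 bases rose from 7.51 ± 0.596 TPM to 16.4 ± 1.54 TPM, or by 1.04 ± 0.13 log2 units (SE), with an adjusted p of 0.0473 by edgeR. Both had whole-number counts in the 7 libraries. Both were close to the threshold and passed in 2 and 1 of the 7 fits without 1 library. With identical transcripts collapsed to 1, neither passed (edgeR adjusted p = 0.0604 and 0.0678). The transcript of 180 bases rose by 2.92 ± 0.35 log2 units (SE), with an adjusted p of 0.0282 by edgeR, from a mean of 0.308 CPM to 2.77 CPM. Its counts were few and were not whole numbers, so its level is uncertain. Over the 7 transcripts that rose, between 1 and 5 of the fits without 1 library kept the call.

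The 10 most abundant transcripts differed in how they stood with TCE. The most abundant, of 2069 bases, took 5.44%, 5.63% and 5.86% of the Control counts and 5.76%, 6.22%, 6.31% and 5.98% with TCE, so the groups overlapped. Its log2 fold change was 0.03, with a 95% interval of -0.14 to 0.20 (edgeR adjusted p = 0.852), well within a 2-fold change. Shares are of total counts, whereas fold changes also use edgeR's scaling factors (TMM). These were 0.9586 to 0.99 in the Control and 1.0049 to 1.0577 with TCE. With scaling to total counts alone its log2 fold change was 0.10. The second, of 1140 bases, held 2.18%, 2.08% and 1.98% in the Control and 0.873%, 0.864%, 0.911% and 1.37% with TCE. The groups were apart, but TCE replicate 4 was well above the other TCE libraries, and the difference did not pass (log2 fold change -1.13 ± 0.15 SE, edgeR adjusted p = 0.0598). Without TCE replicate 4 it passed (edgeR adjusted p = 0.00105), as it did without Control replicate 3 (0.0215). It also passed with DESeq2 (adjusted p = 4.4e-11) and limma voom (adjusted p = 0.00023). By edgeR it passed with no low-count filter (adjusted p = 0.0292), a mean of at least 5 CPM (0.0465) or a replicate block by title (0.0111). It did not pass by edgeR with scaling to total counts (0.0512) or with each library's length trend taken out (0.0568). The third, of 1905 bases, took 1.11% ± 0.0415 of Control counts (SD, n = 3) and 1.57% ± 0.0451 with TCE (SD, n = 4), and the fourth, of 1545 bases, 1.40% ± 0.0667 and 1.13% ± 0.0241. Neither overlapped between groups and neither passed (edgeR adjusted p = 0.0807 and 0.0981). Both passed without Control replicate 3 (0.0215 and 0.0360), with each library's length trend taken out (0.0495 and 0.0320), with DESeq2 (6.8e-12 and 1.2e-06) and with limma voom (0.0025 and 0.0053). The third also passed with scaling to total counts (0.0228). All 3, the second transcript included, were far from passing without Control replicate 1 (0.355 to 0.423) and without Control replicate 2 (0.268 to 0.286). Nor did they pass by edgeR with any 1 of TCE replicates 1 to 3 left out (adjusted p from 0.137 to 0.284). A replicate block by table number gave 0.648 for each. With all 18 libraries in the fit none of the 3 passed (0.0795 to 0.302). Once TCDD replicate 1 was dropped from that fit, all 3 passed (0.0124 to 0.0296). Of the 20 most abundant transcripts 3 were called, which are the pair of 666 bases and the transcript of 798 bases, and for 16 of the 20 the 95% interval excluded a 2-fold change in either direction.

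**Figure D4:**
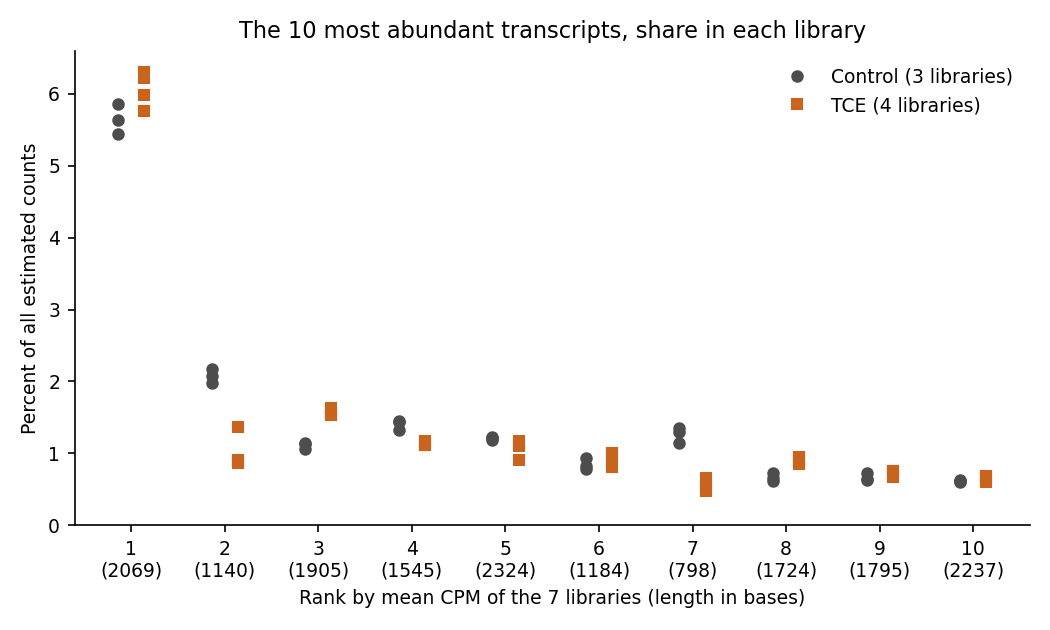
Share of all estimated counts (percent, vertical) of the 10 most abundant transcripts, by rank with the length in bases below (horizontal). Circles are the 3 Control and squares the 4 TCE libraries; the transcripts of 1140 and 798 bases are lower with TCE and that of 1905 bases higher, while the first overlaps between groups.

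As a class, the transcripts ranked 2 to 10 took 9.78% to 9.91% of Control counts and 8.45% to 8.62% with TCE. The groups did not overlap (p = 0.0571 by a two-sided exact permutation, and no smaller p can come from 3 and 4 libraries; adjusted p = 0.228 over 10 classes of length or abundance). The difference was -1.31 percentage points, but -2.71 with ranks taken from the Control libraries alone and -2.37 with TPM in place of counts. Ranks from the Control alone use only 1 side of the comparison. Such ranks favour in advance a lower TCE share in the top classes and a higher one below. The 9 members did not move together, since 55.6% of them had a log2 fold change above 0. Most of the fall lay in the second transcript (mean 2.08% to 1.00%) and the seventh (1.27% to 0.565%), while the third rose (1.11% to 1.57%). With ranks from the Control alone, the class also held the called pair of 666 bases (0.735% to 0.0840% each). In counts, none of the other 9 classes reached that p (exact permutation p from 0.114 to 0.343). With TPM, transcripts over 1000 and up to 2000 bases, those ranked 11 to 100 and those ranked beyond 1000 also reached it, and with ranks from the Control alone so did those ranked below the first 100 and within the first 1000. Transcripts ranked beyond 1000 took 37.9% ± 1.21 of Control counts and 38.8% ± 0.715 with TCE, a difference of 0.938 percentage points that was smaller than the spread of the Control. It was 3.58 with TPM, 1.501 without Control replicate 2, 0.296 without Control replicate 3 and 0.589 without TCE replicate 4.

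Direction followed transcript length. The median log2 fold change was 0.22 for the 479 tested transcripts of up to 500 bases, 0.16 in the next class, up to 1000, 0.08 up to 2000, -0.03 up to 4000 and -0.16 for the 2706 over 4000 bases. The 9 transcripts that fell went against this trend, being short. The trend also ran between libraries of the same group. Transcripts over 4000 bases held 16.6% and 17.5% of counts in Control replicates 1 and 2 but 14.01% in Control replicate 3. They held 13.7%, 13.4% and 13.8% in TCE replicates 1 to 3 but 16.2% in TCE replicate 4. Thus 1 library of each group stood among those of the other group, and the groups overlapped (exact two-sided permutation test, p = 0.114; adjusted p = 0.228 over 10 classes). When each library's trend with length was taken out, 23 transcripts were called (0.151%), 11 higher and 12 lower, and they included all 16.

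**Figure D5:**
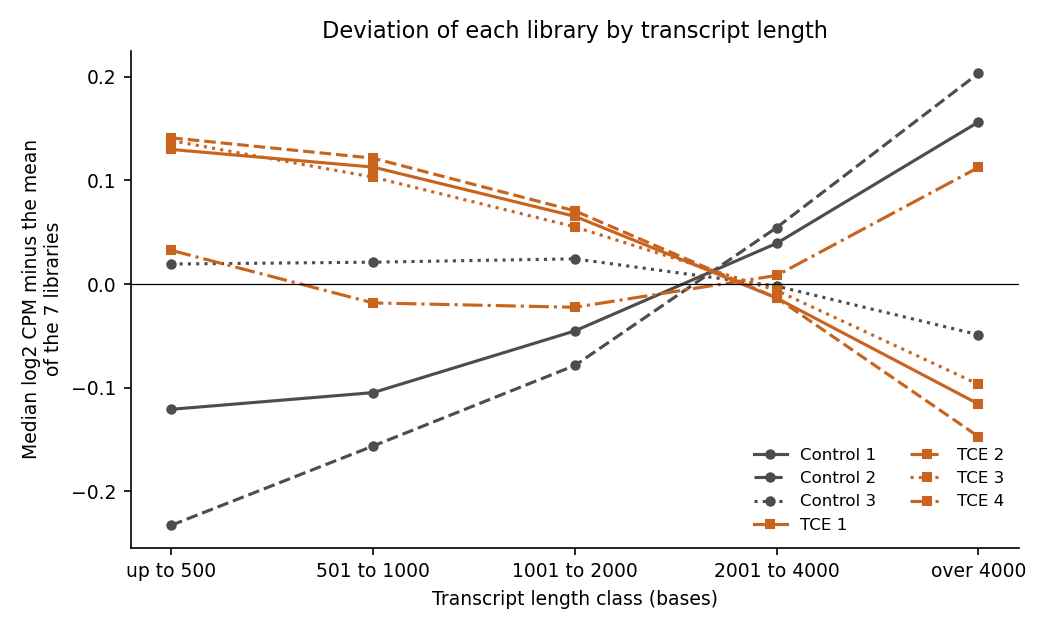
Median deviation of each library from the mean of the 7 libraries (log2 CPM, vertical) in 5 classes of transcript length (horizontal). Circles are Control and squares TCE libraries; lines of Control replicates 1 and 2 rise with length and those of TCE replicates 1 to 3 fall, while Control replicate 3 and TCE replicate 4 lie nearer to the other group in the longest class.

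In the main fit, most transcripts could be bounded rather than called. For 11450 tested transcripts, 74.9%, the 95% interval lay wholly within a 2-fold change in either direction, and for 7295, 47.7%, within 1.5-fold. The interval lay wholly beyond 2-fold for 36, of which 27 were not called; no adjustment for the many transcripts was made to these intervals. These counts of intervals were not repeated under the other settings. At an unadjusted p under 0.05 there were 2918 transcripts (19.1%). That count was 1635 of 15590 without Control replicate 1 and 4046 of 15630 without Control replicate 3. Beyond the called transcripts, 133 of the 15280 tested had an edgeR adjusted p between 0.05 and 0.1. Of these, 68 had a higher value with TCE and 65 a lower one. Their median absolute log2 fold change was 0.578. Among the 68, 47 had at most 2000 bases, as did 44.9% of all tested transcripts. Among the 65, 56 had more, against 55.1% of all.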

How the data were processed

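RNA was measured in 4 TCE and 3 Control libraries, with 1 deposited table each. Per the submitters' processing notes, the authors used kallisto 0.43, which splits a read matching several transcripts between them; for build, annotation, read layout and strand, nothing is given in the sources used here. Each deposited table gives lengths, the authors' estimated counts, which can be fractions, and TPM. TPM, made by the authors, differed by at most 0.0011% from counts over effective length. Counts were whole in the 7 libraries for 41.3% of tested transcripts (tolerance 0.000001), and 108 lay in 52 sets of identical values.

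Counts were rounded, filtered with filterByExpr and tested per transcript with edgeR 4.0.16 (TMM factors, robust quasi-likelihood, R 4.3.3), over the 7 libraries only. Standard errors come from the log2 fold change and F, intervals are 95%, and calls are at a Benjamini-Hochberg adjusted p under 0.05. Identifiers were given to the 2 called transcripts with the largest fold change in each direction, 5 CPM or more on average in the Control or TCE libraries and no overlap. The comparison and rules were chosen with earlier results of these data known. None of the identifiers matched the reference table used for names (0 matches), so the planned gene lists, markers, promoter sequences and sums per gene were not used. Each replicate pair differed by more than sampling noise (chi-square per degree of freedom 4.41 to 19.6).

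In simulated libraries with 200 changed transcripts and 14749 tested, the test recovered 20.9%, 59.7% and 87.9% of changes of 1.5, 2 and 4-fold, with 7 false calls. Each transcript was drawn independently there, without the length trend or the differing libraries of the real data. These rates may therefore not hold for the real comparison. Alternatives used DESeq2 1.42.0, limma 3.58.1 voom, other scalings, filters, thresholds and samples. The number of libraries and counting error limit precision.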

Additional observations from a re-analysis of the deposited data

Results flagged for a closer look

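Within the 4 TCE libraries, a library was listed where its gap to the nearest other exceeded Dixon's 95% limit. 36 sets of values were checked and 4 stood out; chance gives about 5%. The transcript ENSRNOT00000076684.1 was at 104.5 TPM in TCE replicate 3, against 135 to 139 TPM in the other TCE libraries. The other 3 concerned TCE replicate 4. It held 16.16% of counts in transcripts over 4000 bases, against 13.39% to 13.8%. It held 16.63% in transcripts ranked 11 to 100, with 17.04% in the nearest library. The second most abundant transcript, of 1140 bases, held 1.37% of its counts, against 0.864% to 0.911%. Groups of 3, such as the Control, were not checked.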

How the results depend on the processing

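The count of 16 changed transcripts, of 15280 tested, was 37 with scaling to total counts and 149 at an adjusted p under 0.1. It was 35 of 11644 tested where 5 CPM on average was required in the Control or TCE libraries. With identical transcripts collapsed to 1 it was 9 of 15222 (5 higher, 4 lower). DESeq2 called 968 of 15274 and limma voom with quality weights 3874 of 15280, holding 15 and all 16 of the 16. With all 18 libraries in the fit it was 191 of 16473, sharing 3 of the 16. Without TCDD replicate 1 in that fit it was 779 of 16270, sharing 15. It ranged from 8 to 1148 when 1 library was left out; the highest was without Control replicate 3, and 32 without TCE replicate 4. With DESeq2 size factors, effective length offsets, no low-count filter, the length trend removed or an adjusted p under 0.01 it was 11 to 23. These settings tested 15280 transcripts, or 22763 with no low-count filter. The causes of these shifts were not tested. Whether the replicate numbers pair the samples is not known. Deviations from the group mean of same-numbered libraries correlated at -0.03, -0.10 and 0.09 by title and -0.03, -0.10 and -0.22 by table number. They also carry each library's length trend, so these values cannot show whether pairing is present. A replicate block gave 14 calls of 15280 tested by title (2 higher, 12 lower) and 7 of 15280 by table number (0 higher, 7 lower). In each of these fits a TCE library had no Control library of the same number. The 4 named transcripts kept their direction in every alternative run. Of the pair that fell, ENSRNOT00000077306.1 passed in 19 of 20. ENSRNOT00000087247.1 passed in 18 of 19, as it was dropped where identical transcripts were collapsed. Each named transcript that rose passed in 14 of 20. The shares by class could not reach an adjusted p under 0.05 with 3 against 4 libraries, so their test says nothing of stability. Sums per gene were not run. At this depth, transcripts near 1 CPM rest on about 10 counts.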

Other observations

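Outside the called transcripts, 31 averaged 20 CPM or more in the Control or TCE libraries and had a log2 fold change beyond 1 in size, 6 with a higher and 25 with a lower value with TCE. Of the 25, 20 were over 2000 bases, as were 55.1% of all tested transcripts. The 31 were listed after the values were seen, and were taken only from transcripts that did not pass the edgeR test. A transcript of 1128 bases stood at 194, 355 and 107 TPM in TCE replicates 1 to 3 but at 2.45e-07 TPM in TCE replicate 4 and at most 0.0149 TPM in the Control libraries (edgeR adjusted p = 0.157). In the other groups it was present in some libraries and nearly absent in others: it was at 135 and 156 TPM in APAP replicates 3 and 4 but at most 0.146 TPM in replicates 1 and 2, at 112 to 335 TPM with CCl4, and at 56.7, 170 and 6.79 TPM in TCDD replicates 1 to 3 but at 3.64e-07 TPM in replicate 4.

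A transcript of 2686 bases stood at 61.2, 53.7 and 41.3 TPM in the Control and at 159, 170, 100.4 and 161 TPM with TCE (log2 fold change 1.43 ± 0.20 SE, edgeR adjusted p = 0.0692). It was at 117 to 266 TPM in the CCl4, TCDD and APAP libraries except APAP replicate 1, which was at 44.0 TPM. A transcript of 4125 bases stood at 17.6, 16.1 and 8.34 TPM in the Control and at 5.05, 3.61, 2.13 and 3.39 TPM with TCE (log2 fold change -2.04 ± 0.31 SE, edgeR adjusted p = 0.0772). It ranged from 5.35 to 34.4 TPM with APAP, was at least 15.2 TPM with CCl4 and ranged from 5.80 to 97.2 TPM with TCDD.

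A value of 0 in the 3 Control libraries and above 0 in the 4 TCE libraries was found for 32 of the 30897 listed transcripts. Of these, 3 were tested and 0 called. The most abundant of them, of 993 bases, averaged 2.90 CPM with TCE (edgeR adjusted p = 0.0788). That is 10.6 times what 3 counts per Control library, a floor chosen here, would give. An estimate of 0 need not mean that a transcript was absent. The reverse held for 14 of the 30897, which reached at most 2.04 CPM in the Control and did not pass the low-count filter. As the groups hold 3 and 4 libraries, the 32 and the 14 were not counted by like rules.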
